A study of Mus musculus with 18 samples.

Results

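The genes described here are published targets of the microRNA miR-29 that do not encode matrix proteins: the survival genes Mcl1 and Bcl2, the PI3K subunit gene Pik3r1, the cell-cycle genes Cdk6, Ccnd2 and Ppm1d, and the GTPase gene Cdc42. They were chosen by gene name from a table of 55450 mouse genes, and all 7 of 7 had enough counts to be among the 21161 genes tested. Mouse embryonic fibroblasts (MEF) were transfected with 1 of 3 plasmids and sequenced as poly(A) RNA in 18 libraries, 3 in each of 6 groups. The empty vector was pcDNA3. The Col1a1-miR-29b plasmid carries human miR-29b-1 and EGFP behind a rat Col1a1 promoter, and the CMV-miR-29b plasmid has the CMV promoter in its place. Both also carry a red fluorescent marker, mRFP1, behind an SV40 promoter. For each plasmid, 1 group received TGF-β at 20 ng/ml for 24 h, starting 6 h after transfection, and the other received none. The paper names no step that sorted transfected cells, so the libraries may mix transfected and untransfected cells. The plasmids were dosed by molar amount, so the larger Col1a1-miR-29b plasmid came at a higher DNA mass than CMV-miR-29b. Total counts per library ran from 65898017 to 80332633 with a median of 74155860. Low counts were more often multiples of 4 than evenly spread counts would be, so it is unclear whether a count stands for a single read.

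MicroRNAs of the miR-29 family pair through their seed, the bases near the 5′ end, with matching letters in the 3′ untranslated region (3′ UTR) of messenger RNAs, which are then translated less or degraded. In fibroblasts the family is best known for its collagen and other matrix targets, and TGF-β is known to lower it while raising collagen. Its targets outside the matrix include proteins that hold off apoptosis at the mitochondrion, subunits that regulate PI3K, kinases and cyclins that drive passage through G1, and a phosphatase that switches off p53 signalling.

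The seed and its matches are shown because miR-29 recognises its targets through them. The mature mouse sequences, from RefSeq on GRCm38.p6, share 1 seed, bases 2 to 8, here in capitals.
mmu-miR-29a-3p: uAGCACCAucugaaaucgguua
mmu-miR-29b-3p: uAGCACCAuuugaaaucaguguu
mmu-miR-29c-3p: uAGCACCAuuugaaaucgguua
The DNA letters complementary to that seed are TGGTGCT. Read on the transcript strand, they were found in the annotated 3′ UTR of 6 of the 7 members, at 9 places, and 1 of the 9 was followed by A. Among tested genes with an annotated 3′ UTR, 2132 of 14375 (14.8%) held the same letters and 457 (3.18%) held them followed by A. The members have long 3′ UTRs, with a median of 4317 bases against 1096 for those genes. Of the 8308 genes whose 3′ UTR is at least as long as the shortest of the members (873 bases), 22.0% held a match. The members were chosen as published targets, so a match is a description and not a separate finding.

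Each match is given below in a window of 23 bases, 5′ to 3′ on the transcript strand, with the match in capitals and its distance in bases after the stop codon.
Mcl1, base 1036: tagagtcttaaccaTGGTGCTat
Pik3r1, base 371: gaggcctttaaccaTGGTGCTtg
Cdk6, base 8869: ctgacctgtcccttTGGTGCTtc
Cdk6, base 9010: caagagataataccTGGTGCTgg
Cdk6, base 9328: aggatgctctgtttTGGTGCTtt
Ccnd2, base 927: ctacccctaactttTGGTGCTga
Ccnd2, base 2572: ggactgagtctggtTGGTGCTga
Ppm1d, base 778: atttcaataacaaaTGGTGCTgc
Cdc42, base 577: aacgtgtccccaccTGGTGCTct
On GRCm38 these windows lie in the last exon of their transcripts. They are chr3:95661845-95661867 on the plus strand for Mcl1 and chr13:101684501-101684523 on the minus strand for Pik3r1. Those of Cdk6 are chr5:3529646-3529668, chr5:3529787-3529809 and chr5:3530105-3530127 on the plus strand. Those of Ccnd2 are chr6:127129400-127129422 and chr6:127127755-127127777 on the minus strand. Ppm1d has chr11:85346957-85346979 on the plus strand and Cdc42 has chr4:137320518-137320540 on the minus strand. The 5086 bases of the Bcl2 3′ UTR held no match, which says only that these letters are not in this window. In the deposited table Cdk6 ends at 3473180, whereas GENCODE M21 ends it at 3531008, so its 3 matches lie beyond the stretch given for Cdk6 in the table. The other 6 members have the same coordinates in both.

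**Figure D1:**
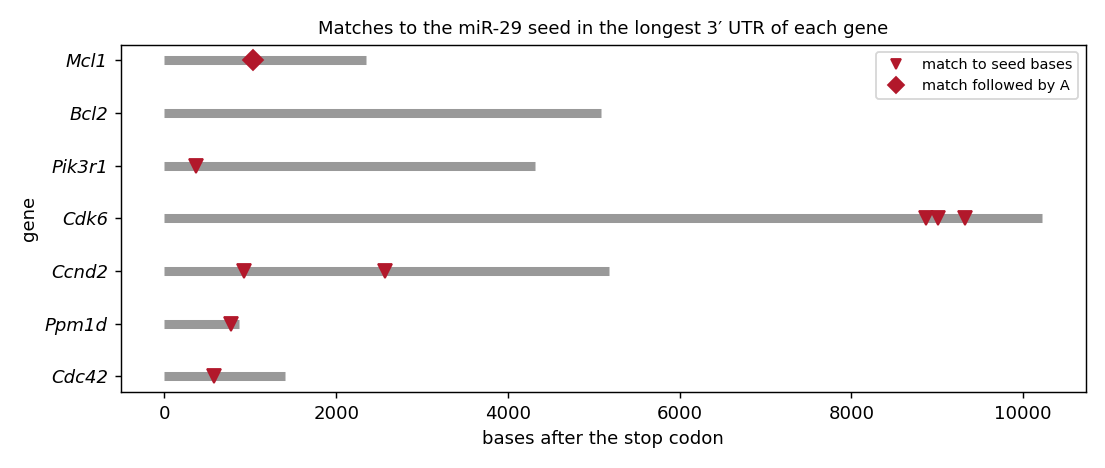
Length of each member's annotated 3′ UTR in bases from the stop codon (bar), with each match to TGGTGCT as a triangle and the match followed by A as a diamond. Cdk6 has 3 matches near the far end of the longest 3′ UTR (10217 bases), and Bcl2 has none.

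The plasmid labels were checked against Mir29b-1, the mouse gene of the expressed microRNA, although the plasmids carry the human sequence and the mature form is too short for these libraries. Its raw counts were 0 in the 6 empty-vector libraries, 0, 1 and 1 in Col1a1-miR-29b cells, and 4, 2 and 6 in those with TGF-β. In CMV-miR-29b cells they were 110, 115 and 309, and with TGF-β 214, 203 and 293. The treatment labels were checked against Acta2, a TGF-β response gene, whose normalized counts in empty-vector cells averaged 254 without and 793 with TGF-β.

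The label MEF was checked against markers. Median FPKM, fragments scaled to transcript length and library size, were 189 for Col1a1, 140 for Fn1, 106 for Vim and 62.0 for Col1a2. Of the other fibroblast markers, Pdgfrb had a median of 2.76 FPKM, Pdgfra 0.852 and Dcn 0.498, Lum had 0 counts in every library and Thy1 had 0 to 8. Epithelial Epcam had 0 to 4 counts and Cdh1 0 to 40, whereas Krt14 had 17 to 197 and, at a median of 0.526 FPKM, exceeded Dcn. Of 3 epithelial markers tested, edgeR found 1 higher with TGF-β in empty-vector and 1 in CMV-miR-29b cells. By the medians, the summed epithelial level was mostly Krt14, the next highest being Cdh1 at 0.0549 FPKM. This sum was higher with than without TGF-β under each plasmid, at 0.697 to 1.46 against 0.330 to 0.503 FPKM in empty-vector cells. It was 0.989 and 1.14 against 0.529 and 0.599 FPKM in Col1a1-miR-29b cells, and 0.858 to 1.47 against 0.138 to 0.316 FPKM in CMV-miR-29b cells. Endothelial Cdh5 had 25 to 152 counts and Pecam1 22 to 76. Of 4 endothelial markers tested, 1 was called higher with TGF-β in empty-vector cells and 0 under the other plasmids. Their summed level was higher with than without TGF-β under each plasmid, at 0.411 to 0.531 against 0.164 to 0.247 FPKM in empty-vector, 0.401 and 0.442 against 0.272 and 0.312 FPKM in Col1a1-miR-29b and 0.419 to 0.550 against 0.265 to 0.312 FPKM in CMV-miR-29b cells. The leukocyte genes Ptprc, Adgre1 and Cd3e had 0 to 25, 0 to 4 and 0 to 2 counts, while Cd68 had a median of 7.93 FPKM. Of the muscle genes, Myod1 had 0 to 8 and Myog 0 to 14 counts, while Des had a median of 3.87 FPKM. Of 2 leukocyte markers tested, edgeR called 0 for TGF-β under each plasmid. By the medians, the summed leukocyte level was nearly all Cd68, the next highest being Ptprc at 0.00692 FPKM. This sum was lower with than without TGF-β in empty-vector cells, at 5.80 to 7.78 against 8.20 to 8.57 FPKM. In Col1a1-miR-29b cells it was also lower, at 7.38 and 7.83 against 9.30 and 9.47 FPKM, and in CMV-miR-29b cells the treatments overlapped. In bulk RNA such as this, fewer cells that express a gene and less RNA of it per cell cannot be told apart.

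In a principal component analysis of all tested genes, 1 empty-vector library with TGF-β, replicate d, stood apart from its group on the second component, at 5.73 against 16.9 for the nearer of replicates c and e. Likewise CMV-miR-29b without TGF-β had replicate c at 17.9 against 2.99 and 7.89. Results that change without the first of these are given both ways below. In both Col1a1-miR-29b groups the columns are c, d and f, while the sample titles are c, d and e. Column f was taken as the replicate that remained, and its FPKM, which matches no title, was not used.

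Per length of transcript, the members spanned a wide range of levels over the 16 libraries with FPKM. Cdc42 was the highest, with a median of 118 FPKM (108 to 126), followed by Mcl1 at 55.0 (50.1 to 59.3) and Ccnd2 at 30.3 (28.7 to 33.9). Ppm1d followed at 11.0 FPKM (9.64 to 13.1). Cdk6 at 4.63 FPKM (3.31 to 5.56) and Pik3r1 at 4.39 (3.22 to 5.40) had overlapping ranges. Bcl2 was the lowest, at 1.52 FPKM (1.03 to 2.17), which is the 45.1th percentile of tested genes, against the 98.5th for Cdc42. Apart from Cdk6 and Pik3r1, no member's range reached that of its neighbour in this order.

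**Figure D2:**
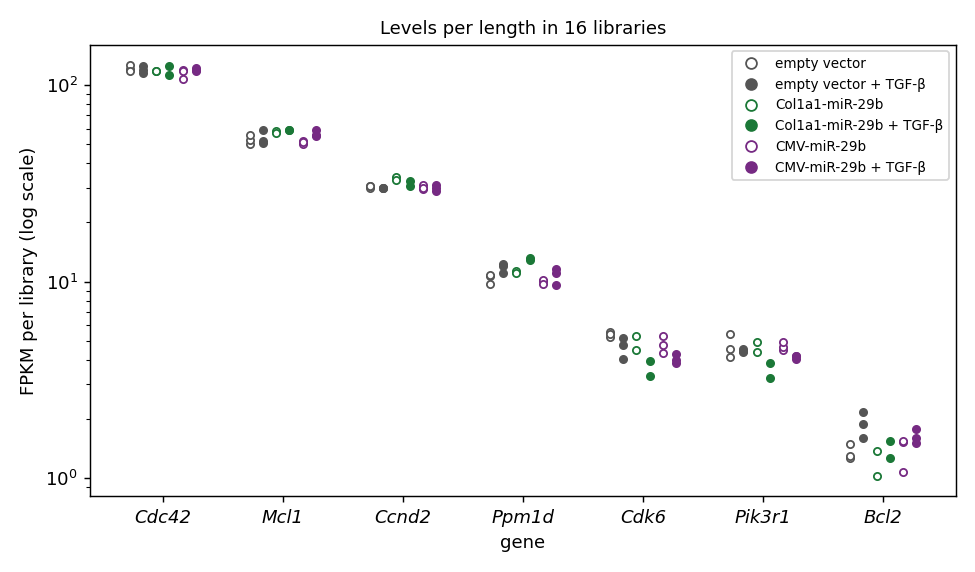
FPKM of the 7 members on a log axis, 1 point per library for the 16 libraries with FPKM. The members keep apart from Cdc42 (median 118) down to Bcl2 (median 1.52), except that Cdk6 and Pik3r1 overlap.

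Gene counts below are scaled by TMM to a common library size. A gene is called when edgeR's quasi-likelihood test gives a Benjamini-Hochberg adjusted p under 0.05 over all 21161 genes. The comparison of miR-29b plasmid with empty vector asks how each construct affects these targets, and it was made without and with TGF-β. For Col1a1-miR-29b in the absence of TGF-β, edgeR called 0 of the 7 members, against 6.27% of all genes. There, 2 members and 4560 of the 21161 genes had an unadjusted p under 0.05, and DESeq2 called 0 members. Except for the interactions below, the DESeq2 share of all genes is not given where it called 0 members, and the share printed is that of edgeR. With TGF-β edgeR called 2 of the 7, Cdk6 and Pik3r1, both lower, against 12.9% of all genes. There, 4 members and 5518 genes had an unadjusted p under 0.05. Over the mean of both treatments edgeR called 3 of the 7, Mcl1 higher and Cdk6 and Pik3r1 lower, against 21.8% of all genes. There, all 7 members and 7021 genes had an unadjusted p under 0.05, and DESeq2 called 4 members, Bcl2 also lower, against 26% of the genes to which it gave an adjusted p. The median log2 fold change of the members in that comparison was −0.08, against 0.02 for all genes. These 3 comparisons share their libraries.

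In CMV-miR-29b cells without TGF-β, edgeR called 0 of the 7 members against 0.00473% of all genes, with 0 members and 1156 genes at an unadjusted p under 0.05 and 0 members by DESeq2. With TGF-β edgeR called 0 of 7 against 0.00945% of all genes, with 2 members, Ppm1d and Cdk6, and 2531 genes at an unadjusted p under 0.05 and 0 members by DESeq2. Over the mean of both treatments edgeR called 0 of 7 against 0.0898% of all genes, again with 2 members, and 2545 genes, at an unadjusted p under 0.05 and 0 members by DESeq2. In that mean the members' log2 fold changes ran from −0.20 for Cdk6 to −0.01 for Mcl1. Setting the plasmids against each other without TGF-β, edgeR called 0 of 7 members against 1.81% of all genes, 3 members and 3478 genes had an unadjusted p under 0.05, and DESeq2 called 1, Mcl1, lower with CMV-miR-29b, against 8.02% of the genes to which it gave an adjusted p. With TGF-β edgeR called 1 of 7, Ppm1d, lower in CMV-miR-29b cells, against 1.93% of all genes, and 1 member and 3305 genes had an unadjusted p under 0.05.

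The response to TGF-β was compared within each plasmid. In empty-vector cells edgeR called 0 of the 7 members against 5.88% of all genes, 2 members and 3597 genes had an unadjusted p under 0.05, and DESeq2 called 2 members, Ppm1d and Bcl2, both higher, against 9.21% of its genes with an adjusted p. In Col1a1-miR-29b cells edgeR called 0 of 7 against 4.32% of all genes, and 3 members and 3025 genes had an unadjusted p under 0.05. DESeq2 called those 3 members, Cdk6 and Pik3r1 lower and Ppm1d higher, against 7.16% of its genes with an adjusted p. In CMV-miR-29b cells edgeR called 0 of 7 against 4.95% of all genes, 2 members and 3310 genes had an unadjusted p under 0.05 and DESeq2 called 0 members. The difference of the response from that of empty-vector cells was tested as an interaction, and edgeR called 0 of 7 members with Col1a1-miR-29b and 0 of 7 with CMV-miR-29b. For both interactions 0% of all genes were called by edgeR, and 0 members had an unadjusted p under 0.05, as 961 and 1129 genes did, or were called by DESeq2, which called 21 and 19 of all genes. Limma on log2 FPKM, with a pseudocount of 1 or 0.1, called 0 members in each comparison for which edgeR called 0.

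**Figure D3:**
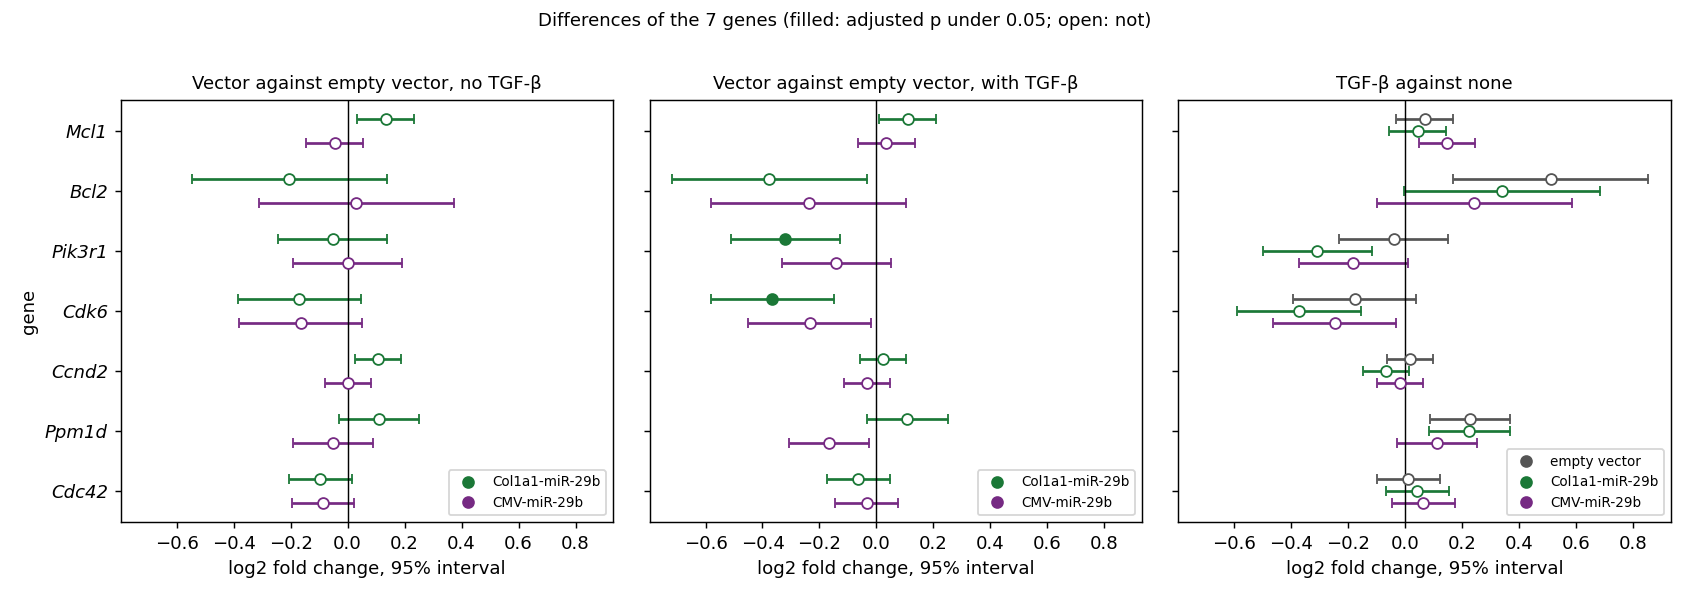
Log2 fold change of each member with its 95% interval for each miR-29b plasmid against empty vector, without and with TGF-β, and for the TGF-β response under each plasmid; filled points have an edgeR adjusted p under 0.05. Only Pik3r1 (−0.32) and Cdk6 (−0.37) for Col1a1-miR-29b with TGF-β are filled among the members and comparisons drawn.

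Mcl1 (ENSMUSG00000038612, chr3:95658788-95663176, plus strand) encodes a short-lived BCL-2 protein that binds and holds off the effectors of apoptosis. Its normalized counts without TGF-β were 14350, 14912 and 15647 in empty-vector cells (replicates c, d and e), 16257, 15932 and 17085 in Col1a1-miR-29b cells (c, d and f), and 14406, 14644 and 14487 in CMV-miR-29b cells. With TGF-β they were 14899, 16872 and 15293 in empty-vector cells, 16769, 16862 and 17135 in Col1a1-miR-29b cells, and 16666, 15867 and 15643 in CMV-miR-29b cells. Without TGF-β every Col1a1-miR-29b library lay above every library of the other plasmids, whereas with TGF-β replicate d of the empty vector reached into the Col1a1-miR-29b range. Group means ran from 14512 ± 121 (SD, n = 3) in CMV-miR-29b cells to 16922 ± 190 in Col1a1-miR-29b cells with TGF-β, a ratio of 1.17. From high to low the groups were Col1a1-miR-29b with and without TGF-β, CMV-miR-29b with TGF-β, empty vector with and without TGF-β, and CMV-miR-29b without, and each of the 5 pairs of neighbours overlapped.

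Over both treatments Mcl1 rose in Col1a1-miR-29b cells by a log2 fold change of 0.12 (SE 0.03, edgeR adjusted p = 0.0157). The call held in 9 of 11 other settings (adjusted p 0.00812 to 0.169) and was lost without any 1 of 4 libraries. Adjusted p was 0.0582 without empty vector c, 0.0769 without empty vector with TGF-β c, 0.0619 without Col1a1-miR-29b f, and 0.0596 without Col1a1-miR-29b with TGF-β f, at log2 fold changes of 0.09 to 0.11. The values were 0.13 (SE 0.05, adjusted p = 0.104) without TGF-β and 0.11 (SE 0.05, adjusted p = 0.150) with it. Leaving out replicate d of the empty vector with TGF-β, which stood apart, the latter became 0.16 with an adjusted p of 0.0225. Between plasmids without TGF-β, Mcl1 was lower with CMV-miR-29b in 3 of 3 libraries by −0.18 (SE 0.05, adjusted p = 0.0657), and without that same library by −0.17 (adjusted p = 0.0295). In CMV-miR-29b cells TGF-β gave a log2 fold change of 0.15 (SE 0.05, adjusted p = 0.101), which was 0.14 with an adjusted p of 0.0485 without that library.

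Bcl2 (ENSMUSG00000057329, chr1:106538178-106714274, minus strand), the founding anti-apoptotic member of the family, had the fewest counts of the 7 and the only 3′ UTR among them without a seed match. Its normalized counts without TGF-β were 1147, 974 and 984 in empty-vector cells, 1027, 771 and 897 in Col1a1-miR-29b cells, and 1175, 816 and 1180 in CMV-miR-29b cells. With TGF-β they were 1482, 1228 and 1711 in empty-vector cells, 965, 1192 and 1250 in Col1a1-miR-29b cells, and 1146, 1374 and 1227 in CMV-miR-29b cells. In empty-vector cells every library with TGF-β lay above every one without, and for both other plasmids the treatments overlapped. The groups with TGF-β held the 3 highest means, from 1474 ± 241 (SD, n = 3) in empty-vector to 1249 ± 116 in CMV-miR-29b and 1136 ± 151 in Col1a1-miR-29b cells. CMV-miR-29b, empty vector and Col1a1-miR-29b without TGF-β followed, down to 898 ± 128, each of the 5 pairs of neighbours overlapping.

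The log2 fold change of Bcl2 with TGF-β was 0.51 (SE 0.16) in empty-vector cells, with an edgeR adjusted p of 0.0842 and a DESeq2 adjusted p of 0.0326. Without replicate d of the empty vector with TGF-β it was 0.62 (edgeR adjusted p = 0.0407). It was 0.34 (SE 0.16) with the Col1a1 and 0.24 (SE 0.16) with the CMV plasmid. The interactions of −0.17 (SE 0.23) and −0.27 (SE 0.23) were smaller than 2 of their standard errors. Against empty vector over both treatments, Bcl2 differed by −0.29 (SE 0.11, adjusted p = 0.0839) in Col1a1-miR-29b cells, with a DESeq2 adjusted p of 0.0437. That became −0.36 (adjusted p = 0.0337) without the same library, and the adjusted p was 0.0461 without CMV-miR-29b d.

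The other BCL-2 family genes, 14 tested of a list of 17, had by edgeR 2 higher and 0 lower after TGF-β in empty-vector cells, where 3.88% of all genes were higher and 2.01% lower. In Col1a1-miR-29b against empty vector with TGF-β, 1 was higher and 1 lower, a share near the 12.9% of all genes called, with a median log2 fold change of −0.00 against 0.02 for all genes. Bmf, a pro-apoptotic BH3-only gene, rose with TGF-β under each plasmid, by 0.93 (SE 0.13, edgeR adjusted p = 0.000189) in empty-vector, 0.91 (SE 0.13, adjusted p = 0.000300) in Col1a1-miR-29b and 0.82 (SE 0.13, adjusted p = 0.000687) in CMV-miR-29b cells. It stayed called in 18 of 18 fits that left out 1 library.

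Pik3r1 (ENSMUSG00000041417, chr13:101680563-101768217, minus strand) encodes the p85α subunit, which holds the catalytic subunit of PI3K stable and restrained until a receptor recruits it. Its normalized counts with TGF-β were 3787, 3748 and 3951 in empty-vector cells (c, d and e), 3208, 2724 and 3268 in Col1a1-miR-29b cells (c, d and f), and 3479, 3407 and 3527 in CMV-miR-29b cells. The 3 groups did not overlap: Col1a1-miR-29b was lowest and empty vector highest. Without TGF-β the counts were 4565, 3802 and 3455 in empty-vector cells, 4055, 3588 and 3754 in Col1a1-miR-29b cells, and 3797, 3871 and 4153 in CMV-miR-29b cells, and there the 3 groups overlapped. From high to low the means were 3941 ± 568 (SD, n = 3) for empty vector, 3941 ± 188 for CMV-miR-29b, 3829 ± 108 for empty vector with TGF-β and 3799 ± 237 for Col1a1-miR-29b. These 4 overlapped along the order, and below them, each apart from its neighbour, came CMV-miR-29b with TGF-β at 3471 ± 60.5 and Col1a1-miR-29b with TGF-β at 3067 ± 298.

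With TGF-β, Pik3r1 fell in Col1a1-miR-29b cells against empty vector, in 3 of 3 libraries, by a log2 fold change of −0.32 (SE 0.09, 95% interval −0.51 to −0.13, edgeR adjusted p = 0.0289). It was called in 7 of 11 other settings (adjusted p 0.00665 to 0.0895) and not without any 1 of 4 libraries. Adjusted p was 0.0537 and 0.109 without Col1a1-miR-29b with TGF-β c or d, and 0.0596 and 0.112 without empty vector with TGF-β c or e, at log2 fold changes of −0.35 to −0.25. Without TGF-β the value was −0.05 (SE 0.09, adjusted p = 0.815). The difference between these, which is the interaction, was −0.27 (SE 0.13), with an unadjusted edgeR p of 0.0527. Over both treatments Pik3r1 was called at −0.19 (SE 0.06, adjusted p = 0.0478), a call made in 4 of 11 other settings (adjusted p 0.0190 to 0.159) and in 7 of 18 fits that left out 1 library. The libraries without which it was lost were empty vector c (adjusted p = 0.109) and d (0.0548), empty vector with TGF-β c (0.0582) and e (0.0953), Col1a1-miR-29b d (0.0867) and f (0.0764), and Col1a1-miR-29b with TGF-β c (0.0504) and d (0.0872). The remaining ones were CMV-miR-29b d (0.0524) and CMV-miR-29b with TGF-β c (0.0540) and d (0.0549).

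Within Col1a1-miR-29b cells, Pik3r1 was lower with TGF-β in 3 of 3 libraries, by −0.31 (SE 0.09), with an edgeR adjusted p of 0.0729 and a DESeq2 adjusted p of 0.0217. The edgeR adjusted p was 0.0234 without empty vector c and 0.0439 without empty vector e. In CMV-miR-29b cells the TGF-β value was −0.18 (SE 0.09, adjusted p = 0.351), lower in 3 of 3 libraries, and in empty-vector cells it was −0.04 (SE 0.09). Against empty vector with TGF-β, CMV-miR-29b cells had Pik3r1 lower in 3 of 3 libraries by −0.14 (SE 0.09, adjusted p = 0.575). Reads of Pik3r1 could include those of Gm36638, listed as 2 entries that overlap it on the same strand with at most 38 and 21 counts per library.

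Of the other PI3K and AKT pathway genes, 31 tested of a list of 32, edgeR found 1 higher and 10 lower in Col1a1-miR-29b cells against empty vector with TGF-β, where 5.31% of all genes were higher and 7.63% lower. Their median log2 fold change was −0.08 against 0.02 for all genes. Without TGF-β 0 were higher and 3 lower, beside 2.57% and 3.70% of all genes.

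Cdk6 (ENSMUSG00000040274, chr5:3341485-3473180, plus strand) encodes the kinase that D-type cyclins activate to phosphorylate RB1 in G1. Its normalized counts with TGF-β were 5729, 4742 and 6194 in empty-vector cells (c, d and e), 3831, 4649 and 4457 in Col1a1-miR-29b cells (c, d and f), and 4959, 4535 and 4666 in CMV-miR-29b cells. The Col1a1-miR-29b libraries all lay below the empty-vector ones, the nearest being Col1a1-miR-29b d and empty vector d, and CMV-miR-29b overlapped both. Without TGF-β they were 6526, 6060 and 6267 in empty-vector cells, 6061, 5135 and 5564 in Col1a1-miR-29b cells, and 6259, 5031 and 5528 in CMV-miR-29b cells, so that the highest library of each miR-29b plasmid reached the empty-vector range. From high to low the means were 6284 ± 234 (SD, n = 3) for empty vector, 5606 ± 618 for CMV-miR-29b, 5586 ± 464 for Col1a1-miR-29b, 5555 ± 742 for empty vector with TGF-β, 4720 ± 217 for CMV-miR-29b with TGF-β and 4313 ± 428 for Col1a1-miR-29b with TGF-β. Each of the 5 pairs of neighbours overlapped, and the highest mean was 1.46 times the lowest.

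With TGF-β, Cdk6 fell in Col1a1-miR-29b cells against empty vector by a log2 fold change of −0.37 (SE 0.10, 95% interval −0.58 to −0.15, edgeR adjusted p = 0.0275). It was called in 6 of 11 other settings (adjusted p 0.00641 to 0.108). It was not called without Col1a1-miR-29b with TGF-β c (−0.29, adjusted p = 0.133) or f (−0.40, 0.0534), or without empty vector with TGF-β c (−0.35, 0.0816) or e (−0.28, 0.155). Without replicate d of the empty vector with TGF-β, the library that stood apart, it was −0.47 (adjusted p = 0.00490). Without TGF-β the value was −0.17 (SE 0.10, adjusted p = 0.371), and the interaction was −0.20 (SE 0.14) with an unadjusted edgeR p of 0.194. Over both treatments Cdk6 fell by a log2 fold change of −0.27 (SE 0.07, adjusted p = 0.0145), which stayed called in 18 of 18 fits that left out 1 library, with values of −0.33 to −0.23, and in 8 of 11 other settings (adjusted p 0.00237 to 0.0736). In CMV-miR-29b cells that mean was −0.20 (SE 0.07, adjusted p = 0.283).

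TGF-β itself gave Cdk6 log2 fold changes of −0.18 (SE 0.10, edgeR adjusted p = 0.420) in empty-vector, −0.37 (SE 0.10, adjusted p = 0.0519) in Col1a1-miR-29b and −0.25 (SE 0.10, adjusted p = 0.233) in CMV-miR-29b cells. In both groups with a miR-29b plasmid, 3 of 3 libraries with TGF-β were below those without. The Col1a1-miR-29b value passed the threshold by DESeq2 (adjusted p = 0.0117). It also passed by edgeR without CMV-miR-29b c (0.0393) or d (0.0470), or without empty vector with TGF-β d (0.0244) or e (0.0475). Cdk6 overlaps Gm17590 and Gm42435 on the opposite strand, with at most 11 and 22 counts per library.

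**Figure D4:**
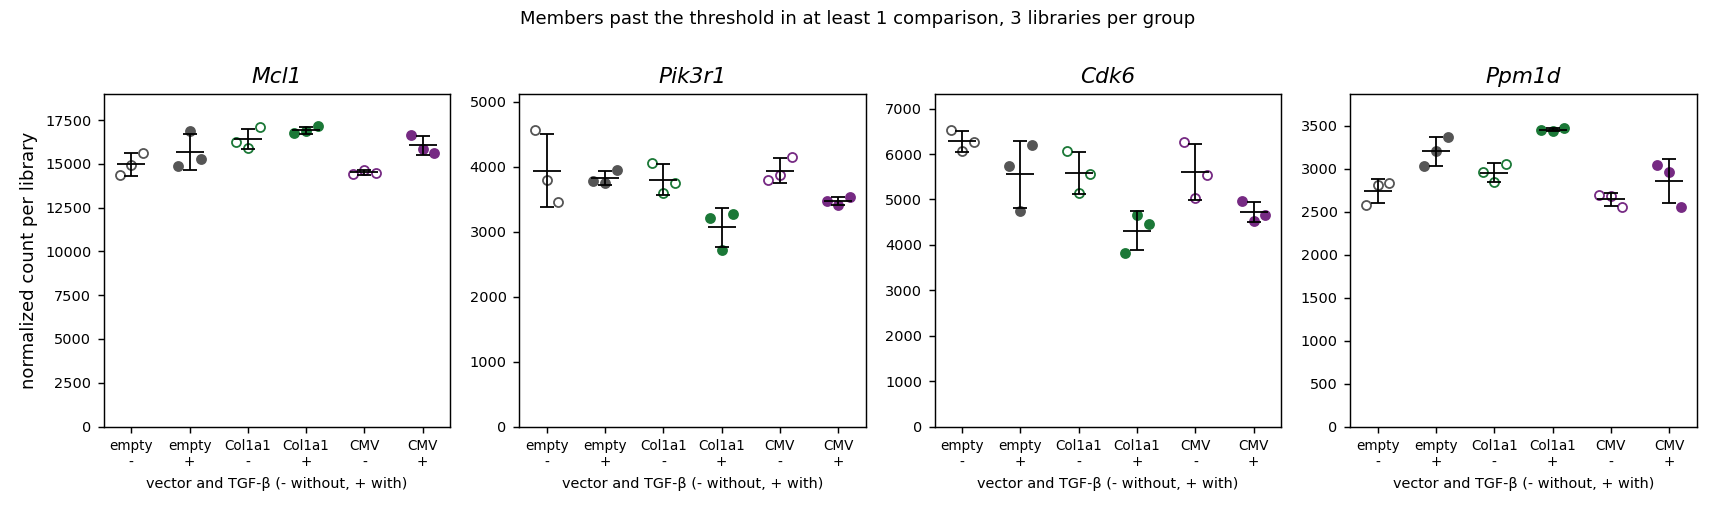
Normalized counts of Mcl1, Pik3r1, Cdk6 and Ppm1d in each library by plasmid, open without and filled with TGF-β, with the mean and SD of each group (n = 3) and axes from 0. With TGF-β, Pik3r1 (2724 to 3268) and Cdk6 (3831 to 4649) in Col1a1-miR-29b cells lie below all empty-vector libraries.

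Ccnd2 (ENSMUSG00000000184, chr6:127125162-127152193, minus strand) encodes cyclin D2, a partner of CDK6. Its normalized counts without TGF-β were 23463, 23909 and 23732 in empty-vector cells, 26099, 25149 and 25357 in Col1a1-miR-29b cells, and 24609, 23067 and 23462 in CMV-miR-29b cells. The Col1a1-miR-29b libraries lay above all 6 others. With TGF-β they were 24105, 23531 and 24275 in empty-vector cells, 23960, 25533 and 23576 in Col1a1-miR-29b cells, and 24147, 23482 and 22609 in CMV-miR-29b cells, and the 3 groups overlapped. Group means ran from 25535 ± 499 (SD, n = 3) for Col1a1-miR-29b through 24356 ± 1037 with TGF-β, 23970 ± 390 for empty vector with TGF-β, 23712 ± 801 for CMV-miR-29b and 23701 ± 224 for empty vector to 23413 ± 771 for CMV-miR-29b with TGF-β. Neighbours overlapped in each of the 5 pairs, and the highest was 1.09 times the lowest. Col1a1-miR-29b differed from empty vector without TGF-β by a log2 fold change of 0.11 (SE 0.04, edgeR adjusted p = 0.104), which passed the threshold with total counts as library sizes (0.0383). Over both treatments the value was 0.07 (adjusted p = 0.0968), and Ccnd2 was called higher by limma on log2 FPKM (adjusted p = 0.0157 and 0.0195 at pseudocounts of 1 and 0.1) and with total counts as library sizes (0.0119).

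Of the other G1 cyclins, CDKs and inhibitors, 23 tested of a list of 24, edgeR found 3 higher and 3 lower in Col1a1-miR-29b cells against empty vector with TGF-β, beside 5.31% and 7.63% of all genes. Their median log2 fold change was −0.02 against 0.02 for all genes. Without TGF-β 2 were higher and 3 lower, beside 2.57% and 3.70%. In the same comparisons Rb1, whose protein CDK6 phosphorylates, was lower by −0.57 (SE 0.08, edgeR adjusted p = 0.000582) with TGF-β and by −0.44 (SE 0.08, adjusted p = 0.00507) without. Ccne1, cyclin E1, was higher by 0.66 (SE 0.10, adjusted p = 0.00114) and 0.55 (SE 0.10, adjusted p = 0.00751), and under TGF-β Cdkn2b, an inhibitor of CDK6, was lower than in empty-vector cells by −0.70 (SE 0.12, adjusted p = 0.00229). These 5 calls held in 18 of 18 fits that left out 1 library. Without TGF-β Cdkn2b was lower by −0.61 (SE 0.12, adjusted p = 0.0116), a call that held in 17 of 18. In empty-vector cells Cdkn2b rose after TGF-β by 0.49 (SE 0.12, adjusted p = 0.0264), which held in 14 of 18.

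Ppm1d (ENSMUSG00000020525, chr11:85311244-85347066, plus strand) encodes WIP1, a phosphatase that p53 induces and that in turn damps p53 signalling. Its normalized counts with TGF-β were 3028, 3210 and 3367 in empty-vector cells (c, d and e), 3448, 3436 and 3473 in Col1a1-miR-29b cells (c, d and f), and 3039, 2961 and 2558 in CMV-miR-29b cells. Without TGF-β they were 2572, 2813 and 2828 in empty-vector cells, 2956, 2847 and 3059 in Col1a1-miR-29b cells, and 2688, 2685 and 2556 in CMV-miR-29b cells. In both treatments every Col1a1-miR-29b library was above every library of the other plasmids, and CMV-miR-29b e with TGF-β was as low as libraries without it. From high to low the means were 3452 ± 18.7 (SD, n = 3) for Col1a1-miR-29b with TGF-β, then, apart from it, 3201 ± 170 for empty vector with TGF-β. Below came 2954 ± 106 for Col1a1-miR-29b, 2853 ± 258 for CMV-miR-29b with TGF-β, 2737 ± 143 for empty vector and 2643 ± 74.9 for CMV-miR-29b, each overlapping its neighbour.

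With TGF-β, Ppm1d was lower in CMV-miR-29b than in Col1a1-miR-29b cells, in 3 of 3 libraries, by a log2 fold change of −0.28 (SE 0.07, 95% interval −0.42 to −0.13, edgeR adjusted p = 0.0475). This call held in 4 of 11 other settings (adjusted p 0.00509 to 0.249) and in 0 of 18 fits that left out 1 library, whose adjusted p ran from 0.0512 without empty vector d with TGF-β to 0.160 without CMV-miR-29b e with TGF-β, the latter at −0.20. Against empty vector with TGF-β the values were 0.11 (SE 0.07, adjusted p = 0.333) for Col1a1-miR-29b and −0.17 (SE 0.07, adjusted p = 0.336) for CMV-miR-29b. TGF-β gave Ppm1d a log2 fold change of 0.23 (SE 0.07, adjusted p = 0.0591) in empty-vector cells and 0.22 (SE 0.07, adjusted p = 0.0760) in Col1a1-miR-29b cells, higher in 3 of 3 libraries in each. By DESeq2 these had adjusted p of 0.0292 and 0.0267, and by edgeR without CMV-miR-29b e with TGF-β, 0.0336 and 0.0393. In CMV-miR-29b cells it was 0.11 (SE 0.07, adjusted p = 0.490).

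Of the other p53 regulators and PPM phosphatases, 19 tested of 19, edgeR found 1 higher and 7 lower in Col1a1-miR-29b cells against empty vector with TGF-β, beside 5.31% and 7.63% of all genes. Their median log2 fold change was −0.08 against 0.02 for all genes. Without TGF-β 0 were higher and 4 lower, beside 2.57% and 3.70%, with a median of −0.14. Mdm2, whose product marks p53 for destruction, rose with TGF-β in empty-vector cells by 0.32 (SE 0.06, edgeR adjusted p = 0.00320). Cdkn1a, a p53 target from the G1 list, rose with TGF-β by 0.35 (SE 0.05, adjusted p = 0.000477) there, by 0.34 (SE 0.05, adjusted p = 0.000914) in Col1a1-miR-29b and by 0.35 (SE 0.05, adjusted p = 0.000496) in CMV-miR-29b cells. These calls held in 18 of 18 fits that left out 1 library.

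Cdc42 (ENSMUSG00000006699, chr4:137319696-137357720, minus strand) encodes a small GTPase of cell polarity and filopodia that also binds p85α. Its normalized counts without TGF-β were 30080, 31133 and 28938 in empty-vector cells, 28571, 28287 and 27537 in Col1a1-miR-29b cells, and 29571, 26451 and 28912 in CMV-miR-29b cells. With TGF-β they were 31705, 28586 and 30531 in empty-vector cells, 27707, 30860 and 28293 in Col1a1-miR-29b cells, and 29354, 30308 and 29030 in CMV-miR-29b cells. The Col1a1-miR-29b libraries without TGF-β were below the empty-vector ones, and with TGF-β replicate d was high and the groups overlapped. From high to low the means were 30274 ± 1575 (SD, n = 3) for empty vector with TGF-β, 30050 ± 1098 for empty vector, 29564 ± 665 for CMV-miR-29b with TGF-β, 28954 ± 1677 for Col1a1-miR-29b with TGF-β, 28311 ± 1644 for CMV-miR-29b and 28132 ± 534 for Col1a1-miR-29b. Each of the 5 pairs of neighbours overlapped, and the ratio of highest to lowest was 1.08.

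Over both treatments Cdc42 differed in Col1a1-miR-29b cells from empty vector by a log2 fold change of −0.08 (edgeR adjusted p = 0.141). The adjusted p was 0.0372 without Col1a1-miR-29b with TGF-β d and 0.0420 without empty vector with TGF-β d, the latter at −0.11. Of the 50-base windows of its transcript, 3.11% also occur in the processed pseudogenes Gm7407, Gm12492 and Gm6929, so that part of its count is uncertain. Windows shared with other genes made up 0.819% for Cdk6, 0.156% for Pik3r1 and 0.126% for Bcl2. For Mcl1, Ppm1d and Ccnd2 the share was 0%.

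**Figure D5:**
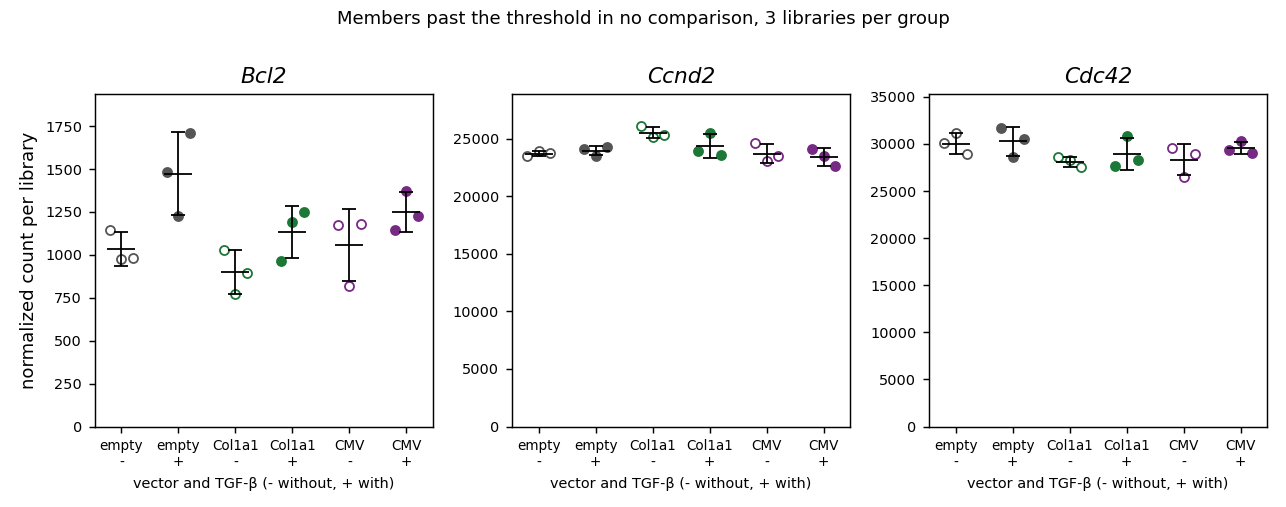
Normalized counts of Bcl2, Ccnd2 and Cdc42, the members edgeR called in no comparison, in each library by plasmid, open without and filled with TGF-β, with the mean and SD of each group (n = 3) and axes from 0. The mean of Bcl2 with TGF-β is highest in empty-vector cells, whose libraries (1228 to 1711) overlap those of both other plasmids with TGF-β.

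For scale, the published matrix targets of miR-29, 15 tested of a list of 16, had 0 higher and 8 lower in Col1a1-miR-29b cells against empty vector with TGF-β by edgeR, at a median of −0.28, whereas the members had 0 higher and 2 lower at a median of −0.06 and 7.63% of all genes were lower. Of the 16, 13 hold the seed match. In CMV-miR-29b cells 0 of the matrix targets were called with TGF-β (median −0.27) and 0 without (median −0.17). Over both treatments 0 were higher and 6 lower there, beside 0.0473% of all genes lower, at a median of −0.23 against −0.07 for the members. Of the fibroblast markers, Col1a1, Col1a2 and Col3a1 are also on the matrix target list. Of the 8 fibroblast markers tested of 10, 6 fell with Col1a1-miR-29b under TGF-β, 2 without TGF-β and 7 over both treatments. With CMV-miR-29b, 0 fell under TGF-β, 0 without and 1 over both. Their summed level under TGF-β was 549 and 559 FPKM in Col1a1-miR-29b libraries c and d against 698 to 796 FPKM in empty-vector cells. In CMV-miR-29b cells it was 599 to 654 FPKM. Without TGF-β the sum was 381 and 380 FPKM in Col1a1-miR-29b, 386 to 430 in CMV-miR-29b and 432 to 479 in empty-vector cells. The part of these lower marker levels in the lower Cdk6 and Pik3r1 was not tested.

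Over the 18 libraries, log2 CPM (counts scaled to library size) of Cdk6 and Pik3r1 had a Pearson r of 0.682, those of Mcl1 and Ppm1d 0.741, and those of Bcl2 and Cdc42 0.658, while Cdk6 and Mcl1 had −0.617 and Mcl1 and Pik3r1 −0.648. These describe 6 groups of 3 libraries and so include the differences between groups. Among 11209 genes with a mean of at least 5 CPM, those most like each member over the 18 libraries were Enc1 (0.932) and Bcl6 (0.920) for Mcl1, and Tent4a (0.965) and Ptpn12 (0.929) for Bcl2. Zfp248 (0.805) and Ccdc85c (0.803) were most like Pik3r1, and Nrn1 (0.913) and Slc30a4 (0.906) most like Cdk6. Ccnd2 had Parp11 (0.820) and Trim30a (0.818), Ppm1d had Cd14 (0.904) and Aen (0.884), and Cdc42 had Eif3e (0.926) and Rhoa (0.897).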

How the data were processed

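The deposited table gives raw counts per gene for 18 libraries and FPKM for the same genes; per the labels the authors used cutadapt, FastQC, HISAT2 and StringTie. The counting method and its strand setting are not given in the sources used here, so reads of genes that overlap on opposite strands cannot be told apart. The labels name mm9, but the paper gives Ensembl release 96 of the mouse genome, which is GRCm38, and 94.7% of the table's gene coordinates and strands equal those of GENCODE M21 on GRCm38. Of the deposited FPKM columns, 2 matched no sample and were not used, leaving 16. Counts were tested in R 4.3.3 with edgeR 4.0.16: filterByExpr, TMM, 1 mean per group over all 18 libraries, quasi-likelihood F test, Benjamini-Hochberg over 21161 genes, 13 comparisons. Alternatives used DESeq2 1.42.0 and limma 3.58.1 on log2 FPKM, other scalings, filters and sample sets, and each library left out. The scripts were tested on simulated data, for TGF-β against none in empty-vector cells. There edgeR called 3 of 50 genes changed 1.2-fold, 31 of 50 changed 1.5-fold and 45 of 50 changed 2-fold. The paper states that the experiment was repeated 3 times per group; whether each repeat had its own culture of cells is not stated, and p-values measure the spread between these repeats. Replicates correlated at 0.976 to 0.982 and differed by more than the counting error of single reads, which these counts may not be.

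The members and the gene lists were chosen with earlier results of these data known. Named from each list were at most 3 genes per comparison, past the threshold and with the largest absolute log2 fold change, of which those that held without any single library are given, with 2 other calls of Cdkn2b, a choice made after their values were seen, and some are not reported here; likeness named 2 genes per member. Seed matches were searched on the transcript strand of annotated 3′ UTRs.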

Additional observations from a re-analysis of the deposited data

How the results depend on the processing

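The direction of every member called was the same in all 11 alternatives and 18 fits without 1 library; the number called moved, and the cause was not tested. DESeq2 called 2 members for TGF-β in empty-vector cells, 3 for TGF-β in Col1a1-miR-29b cells and 1 for CMV-miR-29b against Col1a1-miR-29b without TGF-β. Total counts as library sizes gave 2 for TGF-β in Col1a1-miR-29b cells and 1 (Ccnd2) for Col1a1-miR-29b against empty vector without TGF-β; counts divided by 4 gave 2, and a minimum of 10 counts in every library 1, for TGF-β in Col1a1-miR-29b cells. For CMV-miR-29b against Col1a1-miR-29b with TGF-β, 0 rather than 1 were called with RLE size factors, with a minimum of 1 count in any library, with the groups compared alone, with limma at either pseudocount and without the libraries f. For Col1a1-miR-29b against empty vector with TGF-β, 0 rather than 2 were called with the groups alone and by limma at either pseudocount, and 1 without the libraries f, where the mean of both treatments also had 1 rather than 3; leaving these out with no block was chosen after seeing the data. That mean had 0 to 4 members called over the alternatives, 3 of 11 giving 3 as in the report. Gained there were Bcl2 by DESeq2 (adjusted p = 0.0437), Ccnd2 by limma (0.0157 and 0.0195) and with total counts (0.0119), and Ppm1d with total counts (0.0470).

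The replicate block, which needs the libraries f left out, called 0 members in these 3 comparisons (adjusted p of Pik3r1 with TGF-β 0.0542, of Ppm1d 0.249), and 161 rather than 1327 of all genes for Col1a1-miR-29b without TGF-β. Letters did not pair libraries: residuals of the same letter had a mean r of 0.0063 over 36 pairs, and of different letters −0.0031 over 70.

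Without 1 library, members called ran from 0 to 1 for TGF-β under each plasmid, 0 to 3 for Col1a1-miR-29b against empty vector with TGF-β, 1 to 5 over both treatments, 0 to 1 for CMV-miR-29b against Col1a1-miR-29b without TGF-β and 0 to 0 with it. Of all genes, the alternatives called 618 to 1753 (1245 in the report's fit), 394 to 1317 (914) and 527 to 1514 (1047) for TGF-β under empty vector, Col1a1-miR-29b and CMV-miR-29b. Against empty vector they called 161 to 2336 (1327) for Col1a1-miR-29b without TGF-β, 1072 to 3491 (2738) with it and 2902 to 5264 (4606) over both; for CMV-miR-29b 0 to 37 (1), 1 to 294 (2) and 1 to 344 (19). Between plasmids they called 18 to 1226 (382) without and 13 to 1108 (408) with TGF-β, and for the interactions 0 to 21 and 0 to 19 (0 each). Without 1 library these counts, in the same order, ran from 725 to 1428, 630 to 959 and 724 to 1097 for TGF-β, from 468 to 1706, 1291 to 3182 and 3705 to 4857 for Col1a1-miR-29b, from 1 to 5, 2 to 160 and 3 to 158 for CMV-miR-29b, from 61 to 646 and 40 to 504 between plasmids, and from 0 to 3 and 0 to 2 for the interactions, so the shares of all genes set beside the members move with single libraries. Scaling by total counts turned 820 higher and 425 lower into 672 and 593 (TGF-β, empty vector), 543 and 784 into 679 and 643 (Col1a1-miR-29b without TGF-β), 1123 and 1615 into 1469 and 1323 (with), 2141 and 2465 into 2661 and 2014 (both), and 212 and 170 into 145 and 188 (between plasmids without TGF-β), while moving the median of all genes by at most 0.0369. Among counts of 1 to 40, 33.8% to 36.7% per library were multiples of 4 against 25% for evenly spread counts; the cause was not tested, and a count may not be a single read. A member that was not called is not shown to be unchanged.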
